A study of Rattus norvegicus with 14 samples.

Results

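The interferon response and antigen presentation genes followed here are 37 named genes in 6 roles. They comprise the interferon receptor chain Ifnar1 with the kinases Jak1 and Jak2, 7 STAT and IRF transcription factors, 17 interferon-induced effectors, 2 chemokines, 7 genes that make and load peptides for class I molecules, and the class II chaperone Cd74. Members were found by gene symbol, as the probe sets (groups of short DNA probes for 1 transcript) whose array annotation gives exactly 1 symbol that equals a listed name. All 37 genes were measured, of 14217 genes with a probe set of their own symbol, by 51 probe sets out of 31042 tested. For 10 genes there was more than 1 probe set.

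The samples were left ventricles of male Wistar rats, an outbred strain, taken 16 weeks after a tail vein injection under halothane anaesthesia. Control animals (n = 7) were given saline. Diabetic animals (n = 7) were given streptozotocin at 60 mg/kg, a toxin of the insulin-producing beta cells that leaves the animal short of insulin without a change in genotype. A description field of the diabetic samples mentions saline, whereas their titles and source name diabetes, and the titles were followed. The hearts were flushed with phosphate-buffered saline before dissection, and each animal had its own Affymetrix array.

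Type I interferons bind a receptor that includes Ifnar1 and activate the kinase Jak1 and its partners, which phosphorylate STAT proteins. A complex of STAT proteins with Irf9 then binds interferon-stimulated response elements (ISREs) and switches on antiviral effectors, among them Usp18, a protease that removes Isg15 from proteins and damps the receptor. Class I molecules, held together by B2m, show peptides cut by immunoproteasome subunits (Psmb8, Psmb9, Psmb10) and pumped by Tap1 and Tap2. Class II molecules, in the rat encoded by RT1-B and RT1-D genes, are escorted by Cd74 and occur mainly on macrophages, dendritic cells and B cells.

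Upstream sequences were looked up to show which members carry an ISRE-like string close to their start. RefSeq promoter windows of the assembly GRCr8, from 250 bases before to 50 after the transcription start, matched 32 of the 37 members. Usp18, Ifit2, Isg15, Mx2 and Jak1 were the members without an entry. The motif searched was TTTC, 2 bases of any kind and TTTC again, or GAAA, 2 bases and GAAA on the other strand, and overlapping matches were kept. It occurred in 18 of the 32 windows (56.2%) and in 3.92% of all 33469 windows of this length. Of the 13 effectors with a window 10 held it, and of the 7 genes of peptide making and loading 6 did. The windows of Tap1 and Psmb9, neighbours that run in opposite directions, share 44 bases. A second motif, TTCNNNGAA, the core of the gamma-activated site bound by STAT dimers, occurred in 7 of the 32 windows (21.9%) and in 8.87% of all windows. A match describes letters only.

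Stretches of bases -200 to -1 are printed, read 5′ to 3′ on the gene's strand, with the TTTC or GAAA string on either strand in capitals. Irf7 at chr1:205800024-205800223 (minus strand), Ifit3 at chr1:241527126-241527325 (plus strand) and Eif2ak2 at chr6:21940954-21941153 (plus strand) are members with lower mean signal in the diabetic hearts and a match. Irf9 at chr15:33065636-33065835 (plus strand) also had a lower mean and holds none, and B2m at chr3:129549130-129549329 (plus strand) and Psmb10 at chr19:50743293-50743492 (minus strand) hold matches and had slightly higher means. Irf7, Ifit3 and Eif2ak2 carry the string between base -69 and base -7, whereas in B2m it begins at base -150 and Psmb10 has it at bases -73 and -17.
Irf7: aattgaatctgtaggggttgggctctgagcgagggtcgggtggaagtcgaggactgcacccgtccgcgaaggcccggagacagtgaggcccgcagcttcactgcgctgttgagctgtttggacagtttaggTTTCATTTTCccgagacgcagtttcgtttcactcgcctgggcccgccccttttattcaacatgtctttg
Ifit3: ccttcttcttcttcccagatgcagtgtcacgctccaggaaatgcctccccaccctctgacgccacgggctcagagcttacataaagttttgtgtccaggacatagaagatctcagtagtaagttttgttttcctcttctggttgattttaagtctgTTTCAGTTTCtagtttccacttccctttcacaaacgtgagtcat
Eif2ak2: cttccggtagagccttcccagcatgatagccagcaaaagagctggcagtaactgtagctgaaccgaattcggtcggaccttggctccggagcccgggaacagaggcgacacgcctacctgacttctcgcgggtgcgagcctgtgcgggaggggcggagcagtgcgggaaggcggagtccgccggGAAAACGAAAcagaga
Irf9: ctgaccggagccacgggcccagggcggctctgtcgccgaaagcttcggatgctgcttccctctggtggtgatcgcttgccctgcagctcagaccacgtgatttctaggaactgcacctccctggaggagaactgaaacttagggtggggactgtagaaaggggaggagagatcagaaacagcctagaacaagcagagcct
B2m: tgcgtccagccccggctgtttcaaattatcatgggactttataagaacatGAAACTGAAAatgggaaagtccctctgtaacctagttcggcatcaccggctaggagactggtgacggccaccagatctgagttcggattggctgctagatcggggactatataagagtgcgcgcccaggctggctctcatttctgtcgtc
Psmb10: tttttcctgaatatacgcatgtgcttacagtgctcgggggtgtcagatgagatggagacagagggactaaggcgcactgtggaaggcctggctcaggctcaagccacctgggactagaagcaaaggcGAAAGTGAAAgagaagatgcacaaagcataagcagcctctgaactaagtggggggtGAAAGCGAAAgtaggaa

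The effector Usp18 and the class II chaperone Cd74 fell in the diabetic left ventricle, and no member rose. "Fell" and "rose" refer to a limma adjusted p under 0.05 (Benjamini-Hochberg over all 31042 probe sets), and such probe sets are said to be called. Of the 51 member probe sets 2 were called lower (3.92%), where 0.522% of all probe sets were called lower and 1.14% were called in either direction. None of the 51 was called higher by limma or by an exact rank-sum test, against 0.619% of all probe sets by limma, and 1 was higher at an unadjusted p under 0.05. With 7 animals per group the rank-sum test called only probe sets whose groups did not overlap (176 lower and 197 higher). Its calls therefore restate that separation and are no second line of evidence. At an unadjusted p under 0.05, 12 member probe sets of 11 genes were lower (23.5%, against 4.87% of all probe sets). The median log2 change over the 51 was -0.10, and over all probe sets it was -0.00288. The log2 change was negative for 33 of the 51 member probe sets (64.7%) and for 50.6% of all probe sets. With log2 of the deposited values without scaling it was negative for 25 of the 51 (49.0%) and for 33.1% of all probe sets. On 11 member probe sets (21.6%) all 7 diabetic animals lay below the control median, as they did on 6.21% of all probe sets.

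**Figure D1:**
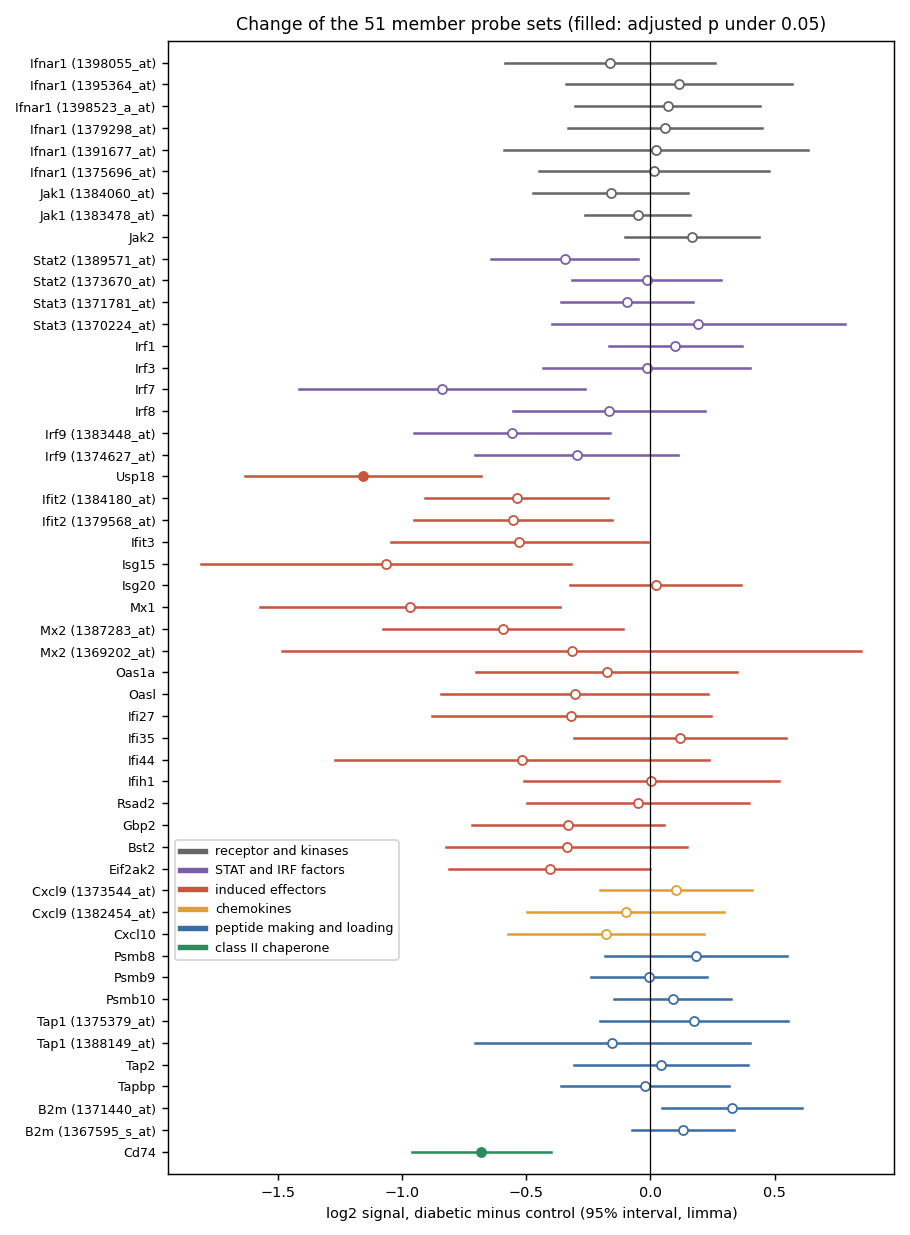
Log2 change (diabetic minus control, x axis) of each of the 51 member probe sets (y axis) with its 95% interval from limma, coloured by role. Filled points mark the 2 called probe sets, Usp18 at -1.16 and Cd74 at -0.68, and most effectors lie left of 0 while the peptide-loading genes lie around it.

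Values are given as log2 signal, that is log2 of the scaled probe set signal plus 50 after quantile normalisation. Its floor is 5.64, set by the added 50, and the middle of all probe sets lies at 7.56. Median deposited signal per array ran from 14.8 to 85.3 before scaling, and the 3 dimmest arrays were control replicates 3 and 5 and diabetic replicate 1. By the values of the array control probe sets the arrays were sorted into 3 classes, called batches here. Each held both groups (A with 2 and 2 animals, B with 2 and 2, C with 3 and 3). The origin of these classes is not given in the labels. Myl2, the ventricular myosin light chain, marked the expected tissue. On its brighter probe set it read 14.98 ± 0.09 in control and 14.97 ± 0.07 in diabetic hearts (SD, n = 7). Over 10 left ventricular muscle probe sets (6 genes) the log2 change ran from -1.22 (Myh6) to 1.09. Limma called 0 of them (1.14% of all probe sets). At an unadjusted p under 0.05, 2 were lower and 2 higher (4.87% and 4.73% of all probe sets were). On 1 of them every diabetic animal lay below every control (0.567% of all probe sets). Markers of atrial muscle varied widely in both groups (summed signal of 3 probe sets from 559 to 25399 in control and from 806 to 24027 in diabetic animals). All 3 had higher means in the diabetic group, with 0 called by limma or the exact rank-sum test (1.14% of all probe sets by limma). At an unadjusted limma p under 0.05, 0 of the 3 were higher (4.73% of all probe sets). The median log2 change of the 3 was 1.16, and by batch 2.40 (A), 2.20 (B) and -0.22 (C). The part of atrial tissue in the results below was not tested. In whole tissue, fewer cells of a type and less RNA per cell cannot be told apart.

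Among the induced effectors, Usp18 was lower in every diabetic animal than in the median control animal. Its log2 signal was 9.42 at the lowest, 10.12 at the median and 10.92 at the highest in controls, and 8.62, 9.03 and 9.53 in diabetic animals. Diabetic replicate 6 alone lay above the lowest control animal, replicate 7, so the groups overlapped by 1 animal on each side. The change was -1.16 ± 0.22 (SE), a 2.23-fold lower signal (95% interval 1.61 to 3.10, limma adjusted p = 0.0141). The difference was -1.72 in batch A, -0.94 in batch B and -0.92 in batch C. Without the 3 dimmest arrays the Usp18 change was -1.13 with a limma adjusted p of 0.118, and by the exact rank-sum test its adjusted p was 0.0709. Dropping any 1 of the 14 arrays kept the Usp18 call, with a highest limma adjusted p of 0.0387.

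Isg15, the ubiquitin-like protein that Usp18 takes off its targets, had the next largest negative change among the effectors and missed the threshold. Its log2 signal spanned 8.14, 9.77 and 10.79 in controls (lowest, median and highest) and 8.04, 8.41 and 9.62 in diabetic animals. All 7 diabetic animals lay below the control median, yet only 1 lay below the lowest control animal. The change was -1.06 ± 0.35 (SE; 2.09-fold lower, 95% interval 1.25 to 3.50; limma adjusted p = 0.243), and by batch (A, B, C) -2.27, -0.15 and -0.87. Mx1, a dynamin-like GTPase that blocks viruses, spanned 7.92, 9.07 and 9.92 in controls and 7.68, 7.78 and 8.85 in diabetic animals. Of the diabetic animals 4 lay below every control, and the other 3 overlapped with them. Its change was -0.97 ± 0.29 (SE; 1.95-fold lower, 95% interval 1.28 to 2.97; limma adjusted p = 0.164), with -1.94, -0.32 and -0.75 by batch. Without control replicate 7, Isg15 (-1.33, limma adjusted p = 0.0411) and Mx1 (-1.15, limma adjusted p = 0.0476) passed the threshold and 4 member probe sets were called lower. Dropping any other single array left both short of it (adjusted p up to 0.386 for Isg15 and up to 0.285 for Mx1).

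Ifit2, an RNA-binding protein with tetratricopeptide repeats, was measured by 2 probe sets that gave like values. The first spanned 10.20, 10.71 and 11.16 in controls and 9.57, 10.20 and 10.57 in diabetic animals, a change of -0.54 ± 0.17 (SE; 1.45-fold lower, 95% interval 1.12 to 1.87; limma adjusted p = 0.229). The second spanned 9.44, 10.24 and 10.54 in controls and 9.13, 9.46 and 9.79 in diabetic animals, a change of -0.55 ± 0.19 (1.47-fold lower, 95% interval 1.11 to 1.93; limma adjusted p = 0.262). On both, all 7 diabetic animals lay below the control median. Mx2, the paralog of Mx1, spanned 7.46, 8.58 and 8.99 in controls and 7.18, 8.12 and 8.33 in diabetic animals on 1 probe set (change -0.59 ± 0.23; 1.51-fold lower, 95% interval 1.08 to 2.11; limma adjusted p = 0.361). Its other probe set ran from 6.37 to 9.66 within the controls alone (change -0.32 ± 0.55). The 95% interval of that change, from -1.48 to 0.85, is wide and holds the value of the first probe set. Probes for Mx1 and Mx2, and for Oas1a and its gene copies, can bind related transcripts, and their separate values are uncertain.

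The remaining effectors differed by less than these. Ifit3, a partner of Ifit2 (-0.53), and Eif2ak2, the double-stranded RNA kinase PKR (-0.41), had unadjusted limma p-values of 0.0470 and 0.0499 and adjusted p-values of 0.509 and 0.520. The change was -0.52 for Ifi44, -0.34 for Bst2 (tetherin, which holds budding viruses at the cell surface), -0.33 for the GTPase Gbp2, -0.32 for Ifi27, -0.30 for Oasl and -0.18 for Oas1a. It lay between -0.05 and 0.12 for Rsad2 (viperin), Ifih1 (the RNA sensor MDA5), Isg20 (an exonuclease) and Ifi35. In all, 1 of the 19 effector probe sets was called lower and 0 higher by limma (0.522% and 0.619% of all probe sets). At an unadjusted limma p under 0.05, 8 were lower and 0 higher (4.87% and 4.73% of all probe sets). The median change was -0.34 for the 19, and 16 of them were negative (50.6% of all probe sets).

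**Figure D2:**
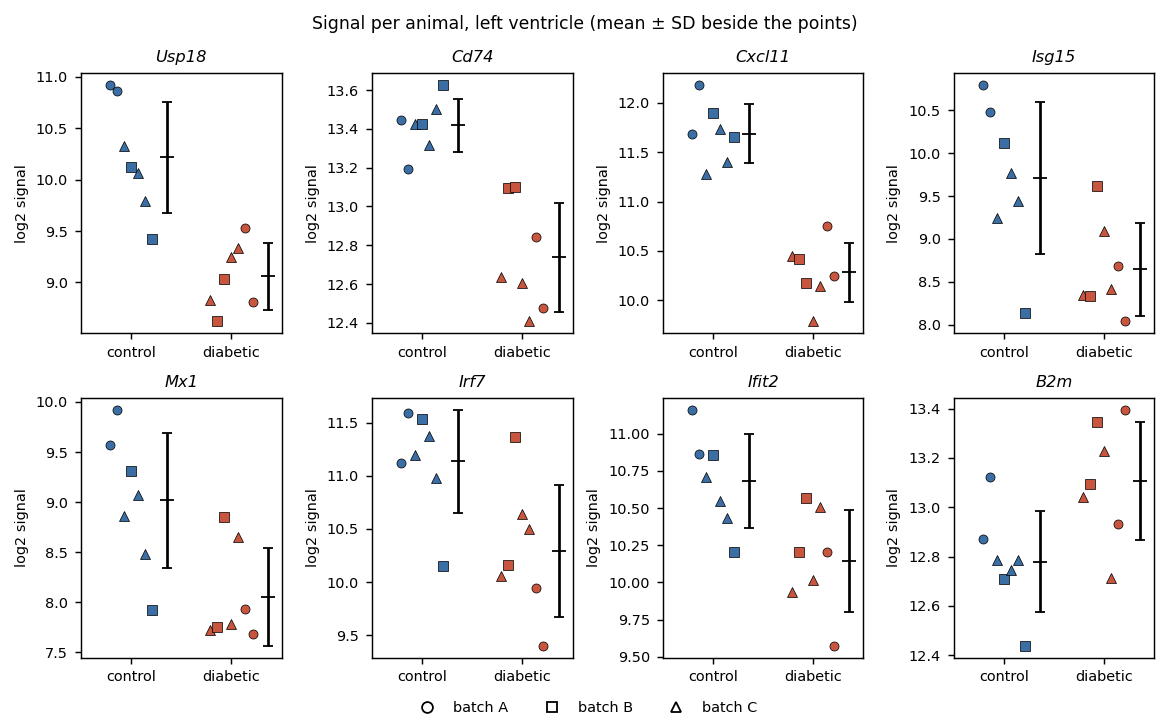
Log2 signal (y axis) of 8 probe sets in each of the 7 control and 7 diabetic animals, with the mean and SD beside the points and the batch as the symbol. Cd74 and Cxcl11 separate the groups fully, while Isg15, Mx1, Irf7 and Ifit2 overlap between the groups.

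Single animals of both groups spread widely on the effectors. Averaged over the 19 effector probe sets, the log2 signal relative to the control mean ran from -0.58 to 0.43 in control animals (median -0.06) and from -0.68 to 0.03 in diabetic animals (median -0.40). Control replicate 7 was at -0.58 and diabetic replicate 3 at 0.03, the edges of their groups. In all, 4 of 7 control animals lay within the diabetic range and 4 of 7 diabetic animals within the control range. Control replicate 7 was the lowest control on 11 of the 19 effector probe sets and on 20 of all 51 member probe sets. Diabetic replicate 3 was the highest diabetic animal on 12 of the 19 and on 23 of the 51. Over all 31042 probe sets the same 2 animals held these places for 3078 and 2704. Control replicates 1 and 2, both in batch A, were the highest controls on 8 and 6 of the 19.

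**Figure D3:**
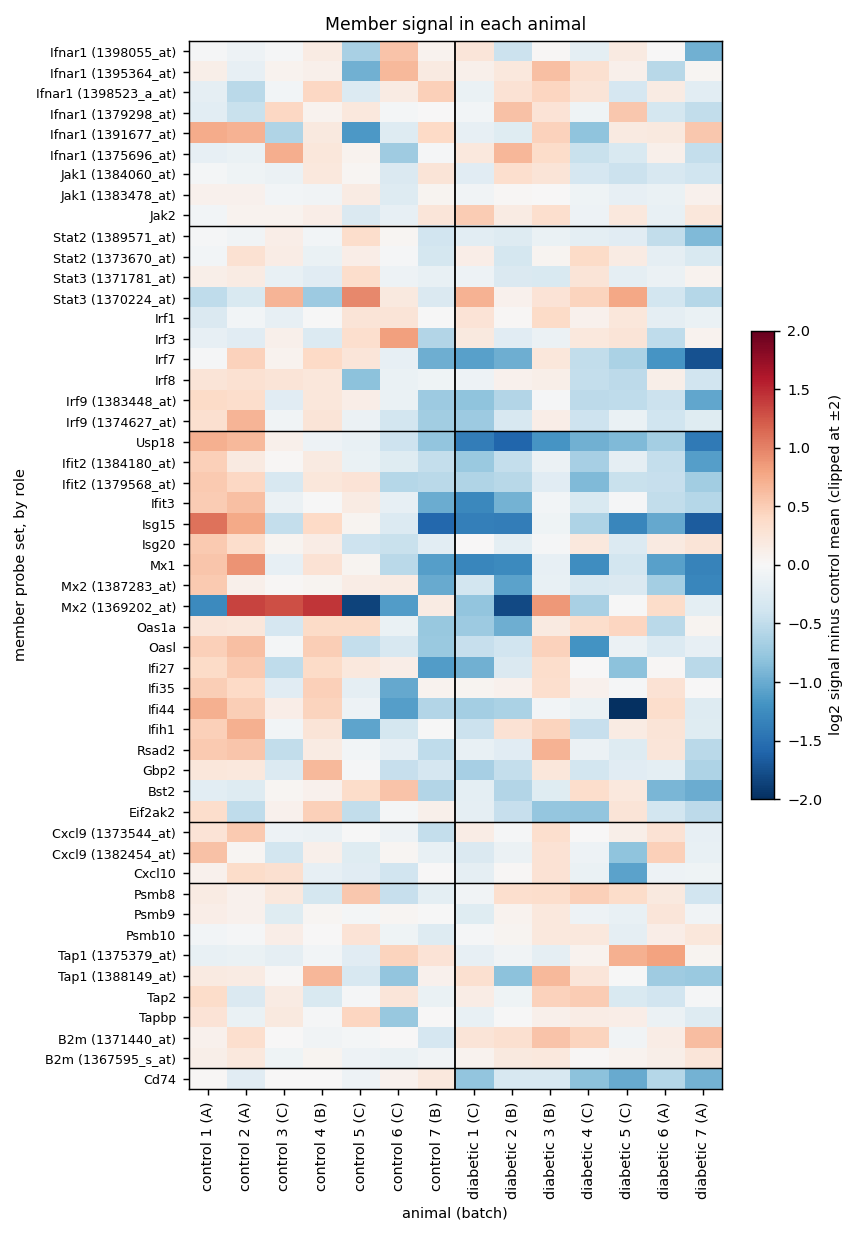
Log2 signal minus the control mean (colour, clipped at ±2) for the 51 member probe sets (rows, by role) in the 14 animals (columns, batch in brackets). Control 7 is blue across many effectors and diabetic 3 is pale or red, whereas Cd74 in the bottom row is blue in every diabetic animal.

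The batches differed in the size of the effector change, a difference that was not tested. The median change over the 19 effector probe sets was -0.71 in batch A, -0.15 in batch B and -0.32 in batch C. Batch B held control replicate 7 and diabetic replicate 3. The log2 ratio of the beta-actin 3′ to 5′ control probe sets, used to split A from B, was 1.41 to 1.71 in batch A. It was 0.67 to 0.84 in batch B and 0.67 to 1.47 in batch C. A part of that ratio in the effector change was not tested. Of the 19 probe sets 10 were lower in the diabetic animals in all 3 batches and 0 were higher in all 3. Of all 31042 probe sets 5493 were lower and 5341 higher in all 3. Within a single batch limma called 0 of the 51 member probe sets and 0 of all 31042. The change was negative for 43, 23 and 31 of the 51 in A, B and C (84.3%, 45.1% and 60.8%). Of all probe sets it was negative for 50.1%, 50.8% and 49.8%.

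**Figure D4:**
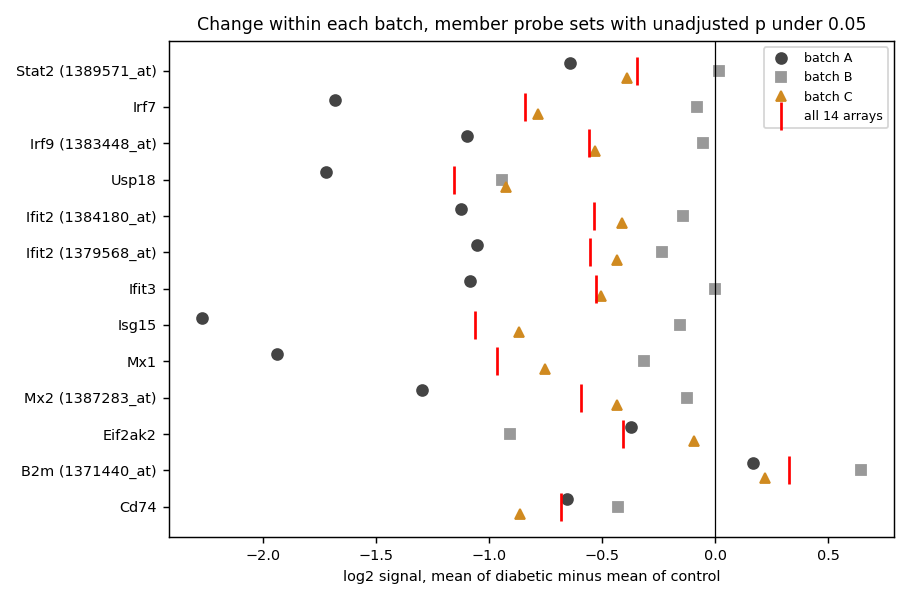
Difference of the group means (log2, x axis) within batches A, B and C and over all 14 arrays (red bar) for the 13 member probe sets with an unadjusted p under 0.05. Usp18 and Cd74 lie at or below -0.43 in every batch, while Irf7, Irf9, Ifit3 and Stat2 lie between -0.08 and 0.02 in batch B.

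Among the transcription factors no probe set was called by limma in either direction (1.14% of all probe sets), and 0 by the exact rank-sum test. At an unadjusted limma p under 0.05, 3 of 10 were lower and 0 higher (4.87% and 4.73% of all probe sets). Irf7, the factor that amplifies type I interferon production and is itself interferon-induced, spanned 10.15, 11.20 and 11.59 in controls and 9.40, 10.16 and 11.37 in diabetic animals. The groups overlapped through control replicate 7, at the bottom of the controls, and diabetic replicate 3, at the top of the diabetic animals. Its change was -0.84 ± 0.27 (SE; 1.79-fold lower, 95% interval 1.20 to 2.67; limma adjusted p = 0.229), and by batch (A, B, C) -1.68, -0.08 and -0.78. Irf9, the DNA-binding part of the STAT complex, spanned 8.78, 9.63 and 9.88 in controls and 8.47, 8.99 and 9.49 in diabetic animals on 1 probe set (change -0.56 ± 0.19; 1.47-fold lower, 95% interval 1.12 to 1.93; limma adjusted p = 0.251). Its second probe set had a log2 change of -0.30 ± 0.19. Stat2, the partner of Irf9, had a log2 change of -0.34 ± 0.14 on 1 probe set (limma adjusted p = 0.399) and of -0.02 ± 0.14 on the other. The changes of Irf1, Irf3 and Irf8 were 0.10, -0.02 and -0.17, and those of the 2 probe sets of Stat3 were -0.09 and 0.19.

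The receptor and its kinases had no called probe set (0 of 9 by limma, 0 at an unadjusted p under 0.05, 0 by the exact rank-sum test). Of all probe sets limma called 1.14%, and at an unadjusted p under 0.05, 4.87% were lower and 4.73% higher. Jak2 had the smallest p of the 9, spanning 7.75, 8.10 and 8.28 in controls and 7.88, 8.25 and 8.55 in diabetic animals. The groups overlapped over most of their range, with a change of 0.17 ± 0.13 (SE, limma adjusted p = 0.752). The 6 probe sets of Ifnar1 had a log2 change of -0.16 to 0.11 and those of Jak1 of -0.16 and -0.05.

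Neither chemokine of the member list was called. Cxcl10, which draws T cells through the receptor Cxcr3, spanned 7.18, 7.56 and 7.92 in controls and 6.48, 7.46 and 7.85 in diabetic animals (change -0.18 ± 0.19, limma adjusted p = 0.847). The ranges overlapped but for diabetic replicate 5. Cxcl9 had a log2 change of 0.10 and -0.10 on its 2 probe sets. Cxcl11, another ligand of the same receptor and part of the wider pathway list, spanned 11.28, 11.68 and 12.18 in controls and 9.79, 10.25 and 10.75 in diabetic animals, with every diabetic animal below every control. Cxcl11 fell by 1.41 on the log2 scale (SE 0.16), a 2.65-fold lower signal (95% interval 2.09 to 3.36, limma adjusted p = 0.000166). The Cxcl11 change was -1.43 in batch A, -1.47 in batch B and -1.35 in batch C, and dropping any single array kept the call (highest limma adjusted p 0.000707). Control replicate 7 and diabetic replicate 3 did not stand apart from their groups on Cxcl11. The control median of Cxcl11, 11.68, was well above those of Cxcl10 (7.56) and of the 2 probe sets of Cxcl9 (8.05 and 7.89). Binding of other transcripts to the Cxcl11 probe set was not tested. T cell markers had 0 of 12 probe sets called by limma or the exact rank-sum test (1.14% of all probe sets by limma). At an unadjusted limma p under 0.05, 1 was higher and 0 lower (4.73% and 4.87% of all probe sets). The summed signal of the T cell markers ran from 708 to 1287 in control and from 732 to 1175 in diabetic animals.

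Genes that make, pump and load peptides for class I molecules had no called probe set. By limma 0 of their 9 probe sets were called (1.14% of all probe sets), and 0 by the exact rank-sum test. At an unadjusted limma p under 0.05, 1 was higher and 0 lower (4.73% and 4.87% of all probe sets). The median change of the 9 was 0.09. B2m, the light chain of class I molecules, spanned 12.44, 12.79 and 13.12 in controls and 12.71, 13.10 and 13.40 in diabetic animals on 1 probe set. Of the diabetic animals 3 lay above every control and 4 within the control range, for a change of 0.33 ± 0.13 (SE; 1.26-fold higher, 95% interval 1.03 to 1.52; limma adjusted p = 0.394). The other B2m probe set, near the top of the signal range, had a log2 change of 0.13 ± 0.10. The immunoproteasome subunits had a log2 change of 0.18 (Psmb8), -0.01 (Psmb9) and 0.09 (Psmb10), the peptide pump chain Tap2 of 0.04 and the loading factor Tapbp of -0.02. Tap1 gave 0.18 and -0.15 on its 2 probe sets, the first of which lay close to the floor. The 95% intervals were from -0.24 to 0.23 for Psmb9 and from -0.36 to 0.32 for Tapbp, so modest changes in either direction remain possible.

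Among the 32 members with a window, the median change was similar with and without a match to the ISRE string. Usp18, Isg15, Mx2 and Ifit2, 4 of the 11 genes lower at an unadjusted p under 0.05, had no window and are not in this comparison. Each gene was taken by its probe set with the smallest p. Ifnar1, Stat3, Cxcl9 and Tap1 had a change of the other sign on another probe set, so the counts below depend on that choice. Tap1 entered at 0.18, from its probe set close to the floor, and had -0.15 on the other. Of the 18 genes with a match 11 had a negative change, with a median of -0.11, and of the 14 without one 10 did, with a median of -0.13. Of the 7 genes with an entry in the promoter table that were lower at an unadjusted p under 0.05, 3 held a match (Irf7, Ifit3 and Eif2ak2) and 4 did not (Stat2, Irf9, Mx1 and Cd74). The other 25 held it in 15.

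**Figure D5:**
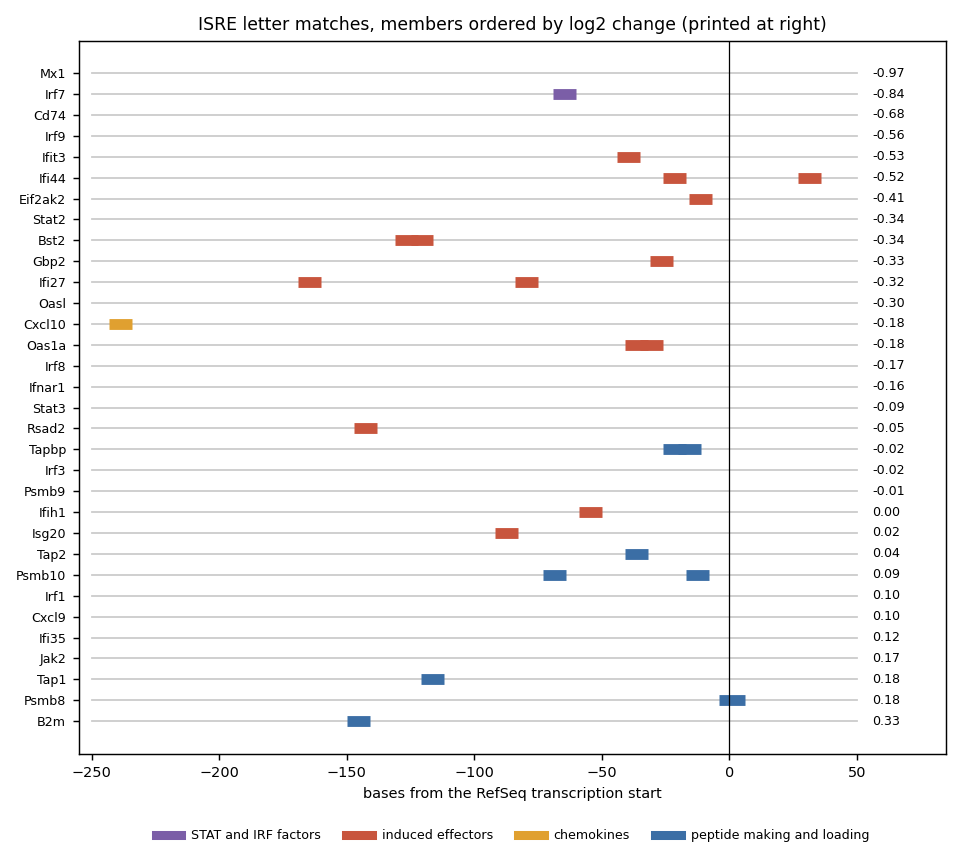
Positions of matches to the ISRE string on either strand in the 32 member windows, as distance from the RefSeq transcription start (x axis, bases). Genes are ordered by the log2 change (printed at right) of their probe set with the smallest p. Coloured blocks, by role, occur among genes at the top of the order (Irf7 at -0.84) and at its end (B2m at 0.33).

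Cd74, the invariant chain that carries class II molecules to the endosome, was the only one of the 37 members whose groups did not overlap (without overlap, 0.567% of all probe sets were lower and 0.635% higher). Its log2 signal was 13.19 at the lowest, 13.43 at the median and 13.63 at the highest in controls, and 12.41, 12.64 and 13.10 in diabetic animals. All 7 diabetic animals lay below all 7 controls, and the control animals spanned less than the diabetic ones. Cd74 fell by 0.68 on the log2 scale (SE 0.13), a 1.60-fold lower signal (95% interval 1.32 to 1.94, limma adjusted p = 0.0142). The difference was -0.66 in batch A, -0.43 in batch B and -0.86 in batch C. The Cd74 call was kept when any single array was dropped (highest limma adjusted p 0.0396). Its call by the exact rank-sum test restates that the groups did not overlap. Without the 3 dimmest arrays its adjusted p was 0.0974, at a change of -0.68.

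Class II genes of the RT1 complex had lower means on most probe sets without passing the test. Of their 11 probe sets (6 genes) limma and the exact rank-sum test called 0 (1.14% of all probe sets by limma). At an unadjusted limma p under 0.05, 5 were lower and 1 higher (4.87% and 4.73% of all probe sets). RT1-DMb, a chain of the peptide editor of class II molecules, spanned 10.41, 10.69 and 10.85 in controls and 9.41, 10.04 and 10.42 in diabetic animals. Only diabetic replicate 1 reached the lowest control animal, and the change was -0.68 ± 0.16 (SE, limma adjusted p = 0.0522). Dropping single arrays moved that adjusted p of RT1-DMb between 0.0334 (without diabetic replicate 1) and 0.119, with 2 of the 14 fits under 0.05 (the other without diabetic replicate 6, 0.0447). RT1-Db1, a class II beta chain, spanned 8.73, 9.32 and 10.15 in controls and 7.97, 8.51 and 9.20 in diabetic animals (-0.76 ± 0.23, limma adjusted p = 0.171). RT1-Bb, the beta chain of RT1-B, spanned 9.01, 10.24 and 11.36 in controls and 8.39, 9.11 and 9.95 in diabetic animals (-0.995 ± 0.33, limma adjusted p = 0.250). All 7 diabetic animals lay below the control median on these 3 probe sets. The division of RT1 genes into class I and class II was made after their values were seen.

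Probe sets of the same class II gene disagreed. RT1 genes are polymorphic, and the part of sequence differences between animals was not tested. A second probe set of RT1-Bb had a log2 change of 0.69, and of the 4 probe sets of RT1-Ba (chosen after their values were seen) 1 had a change of 0.98 and 3 had changes of -0.60 to -0.10. On the RT1-Ba probe set that was higher, single controls ran from 5.81 to 8.85. Class I and class I-like RT1 genes had 0 of 20 probe sets called by limma or the exact rank-sum test (1.14% of all probe sets by limma) and a median change of 0.23. At an unadjusted limma p under 0.05, 0 were lower and 4 higher (4.87% and 4.73% of all probe sets).

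No marker of cells that carry class II molecules was called with Cd74. Of 11 macrophage probe sets 0 were called by limma or the exact rank-sum test (1.14% of all probe sets by limma) and 10 had a positive change. At an unadjusted limma p under 0.05, 4 were higher and 0 lower (4.73% and 4.87% of all probe sets). Their summed signal ran from 7794 to 15579 in control and from 10306 to 14749 in diabetic animals. The change was 0.71 ± 0.18 for Mrc1 (adjusted p = 0.0721), 0.71 ± 0.23 for Cd163 and 0.22 ± 0.19 for C1qa. Dendritic cell markers (3 probe sets for 3 of 5 genes) summed to 45.9 to 268 in control and 89.6 to 286 in diabetic animals. Their changes were -0.41 ± 0.22 (Clec9a), 0.23 ± 0.23 (Flt3) and 0.18 ± 0.23 (Itgax), and those of the B cell markers -0.01 ± 0.20 (Cd79b) and 0.16 ± 0.28 (Ms4a1). In control hearts Clec9a, Flt3 and Cd79b averaged 6.49, 6.29 and 6.12, under the lower quartile of all probe sets (6.515). Ms4a1 averaged 6.514, just under that quartile, and Itgax averaged 7.02. The summed signal of the 2 B cell probe sets ran from 18.1 to 213 in control and from 41.6 to 123 in diabetic animals. A part of macrophages, dendritic cells or B cells in the Cd74 change was not tested.

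In the wider pathway list 1 of 129 probe sets (89 genes) was called lower, Cxcl11 (0.775%, against 0.522% of all probe sets by limma). By limma or the exact rank-sum test 0 were called higher (0.619% of all probe sets by limma). At an unadjusted p under 0.05, 12 were lower (9.30%) and 9 higher (6.98%), against 4.87% and 4.73% of all probe sets. The median change was -0.08. The change was negative for 78 of the 129 (60.5%, against 50.6% of all probe sets) and positive for 51.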

How the data were processed

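Left ventricle RNA of 7 control and 7 diabetic rats was measured on 14 arrays. The authors deposited linear intensity values, 1 for each probe set on each array. Per the submitters' processing notes the tools were MAS5, RMA, affy and limma. Which of them made the deposited intensity values is not given in those notes. RNA was extracted with either of 2 kits, per the labels' protocols, with no record of which animal had which.

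Arrays were scaled to a 2% trimmed mean of 500 (factors 1.61 to 8.81), 50 was added, log2 was taken and arrays were quantile normalised. The 57 array control probe sets were left out. Groups came from the titles. Limma 3.58.1 in R 4.3.3 was fitted to all 31042 probe sets (lmFit and eBayes, group only, two-sided). Each array is a different animal by its title. Array pairs correlated at 0.919 to 0.981, and none was a duplicate. All 51 member symbols matched RefSeq gene IDs of GRCr8. Steps were tested on simulated data.

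Batches were split at the largest gap in the poly-A spike-ins and then in the beta-actin 3′ over 5′ ratio. Such a split gives 3 classes in any data. Members, lists and alternatives were chosen with earlier results of these data known. Named in full are called member probe sets, the 10 with the smallest p, the leading one of each role and, in the wider list, called ones and the 4 of smallest p. The number of arrays limits the precision.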

Additional observations from a re-analysis of the deposited data

Results flagged for a closer look

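Single animals stood apart from the others of their group on 5 of the 110 sets of 7 values examined (Dixon's gap test at 95%), about as many as the 1 in 20 that chance gives. Control replicate 7 was the lowest control on Irf7, at a log2 signal of 10.15 with the next control at 10.98, and on Mx2, at 7.46 with the next at 8.50. Diabetic replicate 5 was the lowest diabetic animal on Ifi44, at 6.34 with the next at 7.88, and on Cxcl10, at 6.48 with the next at 7.37. Control replicate 5 was the lowest control on Irf8, at 7.43 with the next at 8.12. Both control replicate 5 and diabetic replicate 5 were among the animals most often at an extreme over all 31042 probe sets (lowest of their group on 6887 and 6148), whereas control replicate 7 was so on 3078.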

How the results depend on the processing

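The count of 2 member probe sets called lower, Usp18 and Cd74, was also obtained with trimmed-mean scaling alone, cyclic loess, array medians subtracted, offsets of 16 and 200, the brighter 60% of probe sets, a trended robust prior, array weights, batch as a block and an adjusted p under 0.10. It was 1 (Cd74) with the exact rank-sum test. It was 0 without the 3 dimmest arrays, within batch A, within batch B, within batch C, and with log2 of the deposited values without scaling. Leaving out 1 array at a time gave 2 to 4, the 4 without control replicate 7. No alternative called a member probe set higher. With replicate number as a block the count was 0 (limma adjusted p = 0.102 for Usp18 and 0.130 for Cd74). The titles give these as biological replicate numbers and name no pairing. Deviations of same-numbered animals correlated by -0.16 to 0.09, with 0 of 7 pairs over 0.1. Apart from replicate 5, same-numbered animals were in different batches, so these correlations cannot show whether animals were paired. No called value changed sign. Over all 31042 probe sets, 162 lower and 192 higher calls became 70 and 72 with the replicate block, 89 and 100 without the dimmest arrays, 3 and 7 unscaled, 0 and 0 within single batches, 319 and 326 with the batch block, 258 and 282 with the trended prior, 271 and 290 with an offset of 200, 254 and 256 with array weights and 253 and 271 at the looser threshold. The same alternatives were run for 4 wider-list genes after seeing the data, and RT1-DMb passed the threshold with an offset of 200, cyclic loess, the brighter probe sets, the trended prior and array weights (limma adjusted p from 0.00929 to 0.0499). Low probe sets such as one of Tap1 lie near the floor, where a change is understated.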
